A study of Mus musculus with 3 samples.

Results

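The intergenic H3K36me3 peaks described here are the 334 of 1806 peaks in 1 H3K36me3 ChIP-seq list that touched no annotated gene of any kind by 1 bp and whose edge lay 50 kb or less from the edge of a protein-coding gene. Another 297 peaks also touched no gene but lay farther away, 1034 touched a protein-coding gene and 141 touched only other genes, such as long non-coding RNA genes and pseudogenes. The list came from intestinal cells of C57BL/6 mice, 6 weeks old, of the genotype setd2f/f, that is, with floxed Setd2 alleles, and no Cre driver is named. Both ChIPs, against H3K36me3 (antibody Abcam ab9050) and against SETD2 (Life LS-C341561), and the input DNA library without antibody carry this genotype, and each is 1 library. No library without SETD2 was analysed here. With 1 library per antibody there is no replicate check, so the values below describe where peaks lie in this list and carry no p-values. Each 95% interval is exact (Clopper-Pearson), counts every peak as independent of the others and covers counting error only.

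Trimethylation of lysine 36 on histone H3 is placed by SETD2, which travels with elongating RNA polymerase II. The mark is therefore best known from the bodies of transcribed genes, where it usually grows toward the 3′ end and can run past it into the sequence that is transcribed before termination. A peak list shows where the mark was called and measures no transcription, so the labelled tissue could not be checked against the expression of its markers.

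Of the 334 peaks, 2 reached into the 250 bases before a start in the RefSeq promoter table. That table covers the nearest protein-coding gene of 264 peaks. Shtn1 (9 bp from its peak) and Reep5 (141 bp) are not in it, so peaks before such starts could not be counted. The 2 upstream sequences are shown because the peak lies on them. They come from RefSeq (GRCm38.p6) and run 5′ to 3′ on the gene's strand up to the base before the start. At Dcaf8, which encodes a substrate receptor of a cullin ubiquitin ligase, the peak chr1:172147297-172147939 (score 30.1, the authors' own value per peak) ended 75 bp before the start and covered 175 of the 250 bases at chr1:172147765-172148014. At Gm13710, a long non-coding RNA gene nearer to its peak than the nearest protein-coding gene, Tfpi (30.3 kb), the peak chr2:84507112-84507733 (score 30.7) covered 12 of the 250 bases at chr2:84506874-84507123, on the minus strand. Both peaks scored near the list's minimum of 30, at ranks 330 (Dcaf8) and 294 (Gm13710) of the 334. Capitals mark the bases under the peak:
Dcaf8: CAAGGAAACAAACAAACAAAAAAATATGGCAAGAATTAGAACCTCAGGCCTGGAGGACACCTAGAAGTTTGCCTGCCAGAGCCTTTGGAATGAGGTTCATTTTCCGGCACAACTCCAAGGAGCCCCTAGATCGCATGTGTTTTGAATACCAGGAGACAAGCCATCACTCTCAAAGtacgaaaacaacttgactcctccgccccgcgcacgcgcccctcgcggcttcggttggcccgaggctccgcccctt
Gm13710: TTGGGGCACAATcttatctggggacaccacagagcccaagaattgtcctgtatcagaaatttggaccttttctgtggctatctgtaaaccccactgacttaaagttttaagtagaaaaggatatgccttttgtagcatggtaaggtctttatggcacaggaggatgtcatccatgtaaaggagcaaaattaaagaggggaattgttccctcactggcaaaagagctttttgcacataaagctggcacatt

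The 75 bases of the Dcaf8 sequence that the peak left out are those next to the start. Farther from their starts, but with higher scores, lay the peaks before Gtf3a, which encodes the RNA polymerase III factor for 5S rRNA genes (score 40.3, 565 bp away), and before the olfactory receptor gene Olfr1251 (45.8, 614 bp). Their upstream sequences, at chr5:146948407-146948656 (plus strand) and chr2:89667885-89668134 (minus strand), lay outside the peaks. They held 17 CpG dinucleotides at Gtf3a and 0 at Olfr1251. The sequences before Defb33 and Chchd6, also with a peak inside 1 kb, held 2 and 8. Olfr1251 is annotated with a span of 0.957 kb, and whether its edge is a transcription start was not tested. Here capitals mark a match to a promoter motif:
Gtf3a: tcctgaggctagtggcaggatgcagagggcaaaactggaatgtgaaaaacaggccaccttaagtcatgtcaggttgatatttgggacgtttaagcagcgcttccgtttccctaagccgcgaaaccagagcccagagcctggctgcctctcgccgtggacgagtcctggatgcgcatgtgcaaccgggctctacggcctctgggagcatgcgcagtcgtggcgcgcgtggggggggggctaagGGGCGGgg
Olfr1251: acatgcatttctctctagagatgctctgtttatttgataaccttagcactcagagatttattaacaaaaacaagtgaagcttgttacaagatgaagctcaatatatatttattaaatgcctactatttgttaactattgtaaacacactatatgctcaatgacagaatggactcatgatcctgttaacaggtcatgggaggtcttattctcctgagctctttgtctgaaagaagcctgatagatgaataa

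The intergenic peaks lay closer to protein-coding genes than gene-free positions in general. Of all 631 H3K36me3 peaks that touched no gene, 334 (52.9%, 95% interval 49.0 to 56.9) lay within 50 kb of a protein-coding gene. For comparison, each of these peaks was placed, with its width kept, at every position of its own chromosome where it would touch no gene, which is what unlimited shuffling outside genes gives on average. Of these placements 39.8% lay within 50 kb, so the observed share was 1.33 times as large. Within 5 kb lay 85 peaks (13.5%, 10.9 to 16.4) against 9.61% of placements, and within 10 kb 150 peaks (23.8%, 20.5 to 27.3) against 16.2%. The ratio was highest within 1 kb, where 29 peaks (4.596%, 3.10 to 6.53) stood against 2.31% of placements, or 14.5 peaks. In each of these 4 ranges the placement share lay below the interval. Separate ranges of distance were also compared. Between 1 and 5 kb the 56 peaks (8.875%, 6.77 to 11.4) stood beside 7.30% of placements and between 20 and 30 kb the 47 peaks (7.45%, 5.52 to 9.78) beside 6.12%. Between 30 and 40 kb the 32 peaks (5.07%, 3.49 to 7.08) stood beside 4.68% of placements, and between 40 and 50 kb the 24 peaks (3.80%, 2.45 to 5.61) beside 3.75%. In these 4 ranges the placement share lay inside the interval. It lay below it from 5 to 10 kb, with 65 peaks (10.3%, 8.04 to 12.9) against 6.64%, and from 10 to 20 kb, with 81 (12.8%, 10.3 to 15.7) against 9.04%.

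**Figure D1:**
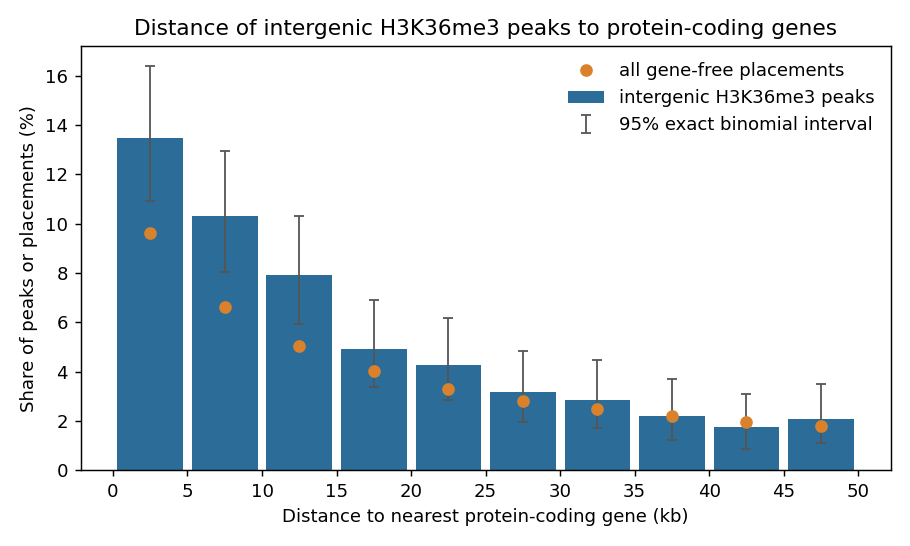
Share of the 631 H3K36me3 peaks that touch no gene, by distance to the nearest protein-coding gene in steps of 5 kb (bars, in percent of the 631, with exact 95% binomial intervals), and the share of all gene-free placements of the same peaks (points). The point lies below the interval in the first 3 steps, up to 15 kb, and inside it in the other steps, and from 40 to 45 kb it stands above the bar.

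Among the 334 peaks themselves the median distance to the nearest protein-coding gene was 11.1 kb (95% interval of the median 9.88 to 12.9 kb, quartiles 4.80 and 23.8 kb). Placements within the same 50 kb had a median of 13.6 kb. The smallest distance was 9 bp and the largest 49.7 kb. At the limit itself, the last peaks inside it lay 49.711 kb from Usp38 (score 35.5) and 49.067 kb from Obox2 (31.3), and the first outside lay 50.465 kb from Dll1 (49.4) and 50.641 kb from Slc45a1 (31.2). The SETD2 list, called with the same input library, can be set beside it. Of its 102 peaks that touched no gene, 42 (41.2%, 31.5 to 51.4) lay within 50 kb of a protein-coding gene, against 38.6% of their placements, and 8 (7.84%, 3.45 to 14.9) lay within 5 kb against 9.06%. Both placement shares were inside the intervals, and the interval for SETD2 overlapped that for H3K36me3 at 50 kb. The difference between the lists was not tested.

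By chromosome, the number of intergenic peaks within 50 kb exceeded the mean number over placements on 19 of the 21 chromosomes that held gene-free peaks. Chromosome 5 held 22 against 13.1, chromosome 12 held 19 against 10.4, and chromosome 7, with its large receptor gene arrays, 24 against 18.6. The exceptions were chromosome 4, with 11 against 12.9, and chromosome Y, with 0 of its 2 gene-free peaks. Placements also cover assembly gaps and sequence in which reads cannot be placed, and the part this has in the difference was not tested.

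**Figure D2:**
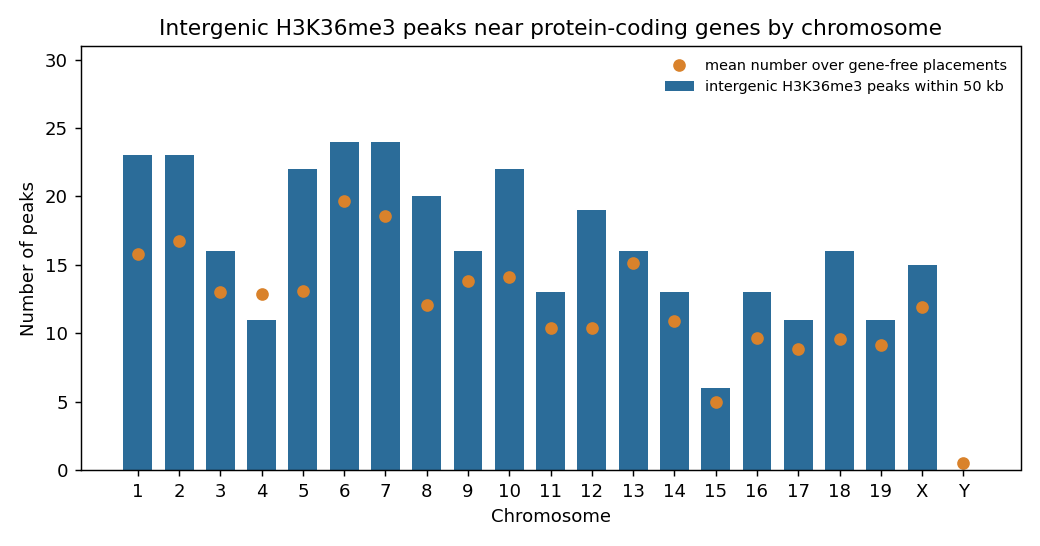
Number of intergenic H3K36me3 peaks 50 kb or less from a protein-coding gene on each chromosome (bars) and the mean number over gene-free placements of the same peaks (points). The bars exceed the points on all chromosomes except 4 and Y.

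The peaks nearest to genes included several directly behind an annotated gene end and others before a gene start. The gene ends are named first. Strand was known for the nearest gene of 264 peaks, and for none of the 16 on chromosome 18. Comparisons of gene ends and starts therefore leave out the peaks of that chromosome. Csnk2a1, the catalytic subunit gene of protein kinase CK2 (chr2:152226535-152281856, GRCm38), ended 20 bp before a peak at chr2:152281877-152282453 that scored 38.9. Pabpc4, a poly(A)-binding protein gene (chr4:123282303-123298925), ended 92 bp before a peak of 861 bp with a score of 44.95, and Fbxo27, an F-box protein gene, 83 bp from a peak scoring 37.7. Il6ra, the interleukin 6 receptor gene, had a peak 303 bp behind its end (score 36.1). The gene of Arnt, the partner of hypoxia and dioxin receptor factors, had one at 309 bp (30.2), and that of Rbm46, an RNA-binding protein, one at 343 bp (33.2). The chemokine gene Ccl22 had one at 446 bp with a score of 51.2, the highest within 1 kb of a gene. The dynein adaptor gene Bicd2 followed at 577 bp (47.8). Other gene ends with a peak inside 1 kb were those of Fcgr4, Abcc5, Runx3, Itga8, Zfp2 and 2010003K11Rik. Gene starts with a peak inside 1 kb were those of Dcaf8 (75 bp), Gtf3a, Ctps2, Olfr1251, Hddc3, Defb33, Chchd6 and St8sia1. Shtn1, with the smallest distance of all (9 bp, score 35.2), had no strand in the table used, nor did Reep5 (141 bp), Galnt18 (369 bp), Tram1, Ccdc162, Clint1 and Gm14870.

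Within 1 kb, a gene start was the nearest edge for 8 of the 22 peaks whose gene had a strand, and a gene end for 14 (63.6%, 40.7 to 82.8), against 51.7% of placements in that range. Between 1 and 5 kb an end was nearest for 20 of 47 peaks (42.6%, 28.3 to 57.8; placements 49.1%), and between 20 and 50 kb for 36 of 83 (43.4%, 32.5 to 54.7; placements 45.8%). The placement share was inside the interval in each range of distance. Over all distances 119 of 264 peaks faced a gene end and 145 a gene start. That is 45.1% at ends (39.0 to 51.3), and the 47.0% of placements lies inside this interval, so no lean toward gene ends or starts was detectable at this number of peaks.

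**Figure D3:**
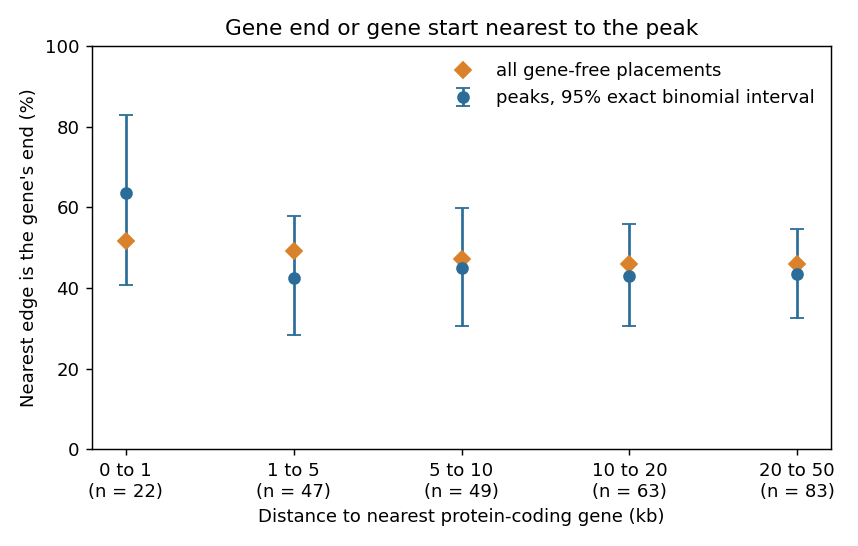
Share of intergenic H3K36me3 peaks whose nearest protein-coding gene edge is the gene's end, by distance in kb (circles, with exact 95% binomial intervals, n peaks with known strand below each), and the same share over gene-free placements (diamonds). The share is 63.6% within 1 kb and between 42.6% and 44.9% farther out, with the placement share inside each interval.

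Among gene starts, the contrast between the CpG-rich sequence before Gtf3a and that before Olfr1251, printed above, can be set beside all genes. The motifs searched on both strands of the 250 bases were GGGCGG (the GC box), then CCAAT, then TATAAA (the TATA box). The search was limited to gene starts whose upstream sequence in the table ends at the edge of the gene, 10583 protein-coding genes in all. Among the 79 such genes that faced a peak with their start, 23 (29.1%, 19.4 to 40.4) held GGGCGG, against 37.0% of the 10583. CCAAT was present in 34 (43.0%, 31.9 to 54.7) against 37.4%, and TATAAA in 13 (16.5%, 9.06 to 26.5) against 15.7%. Each genome-wide share lay inside the interval. The median number of CpG dinucleotides was 5, against 7 in all. Among the 69 genes that faced a peak with their end, the median was also 5, and 23 (33.3%, 22.4 to 45.7) held GGGCGG.

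The highest-scoring intergenic peak was also by far the widest. It covered 4906 bp at chr13:119612803-119617708 with a score of 61.0, starting 2.34 kb behind the end of Tmem267, a transmembrane protein gene (chr13:119488086-119610459), and ending 6.11 kb before Ccl28, the gene of a mucosal chemokine. Tmem267 itself held an H3K36me3 peak with a score of 73.2, which lay 117 kb away. Next by score came a peak of 1395 bp on the X chromosome, 9.40 kb from the predicted gene Gm5923 (59.8). Another of 682 bp lay between the divergent vomeronasal receptor genes Vmn2r111 and Vmn2r112, 3.77 and 23.4 kb away (58.7). Peaks before the start of Mocs1, a molybdenum cofactor synthesis gene (56.2, 7.90 kb), beside Me2, the mitochondrial malic enzyme gene (55.9, 7.04 kb), and behind the centrosomal gene Kiz (53.3, 17.0 kb) followed. Below them stood peaks near Amer2, a gene of an APC-binding membrane protein (51.4, 8.92 kb), and the ciliary gene Cfap53 (51.1, 15.96 kb). Another (49.6) lay 0.258 kb from a long non-coding RNA gene and 11.7 kb from Spin2f, a spindlin family gene on the X chromosome. Tet2, the gene of a 5-methylcytosine dioxygenase, had one 25.9 kb before its start (49.2). So did Col3a1, a fibrillar collagen gene, at 42.3 kb (49.2). Neither Tet2 nor Col3a1 held a peak in its body.

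**Figure D4:**
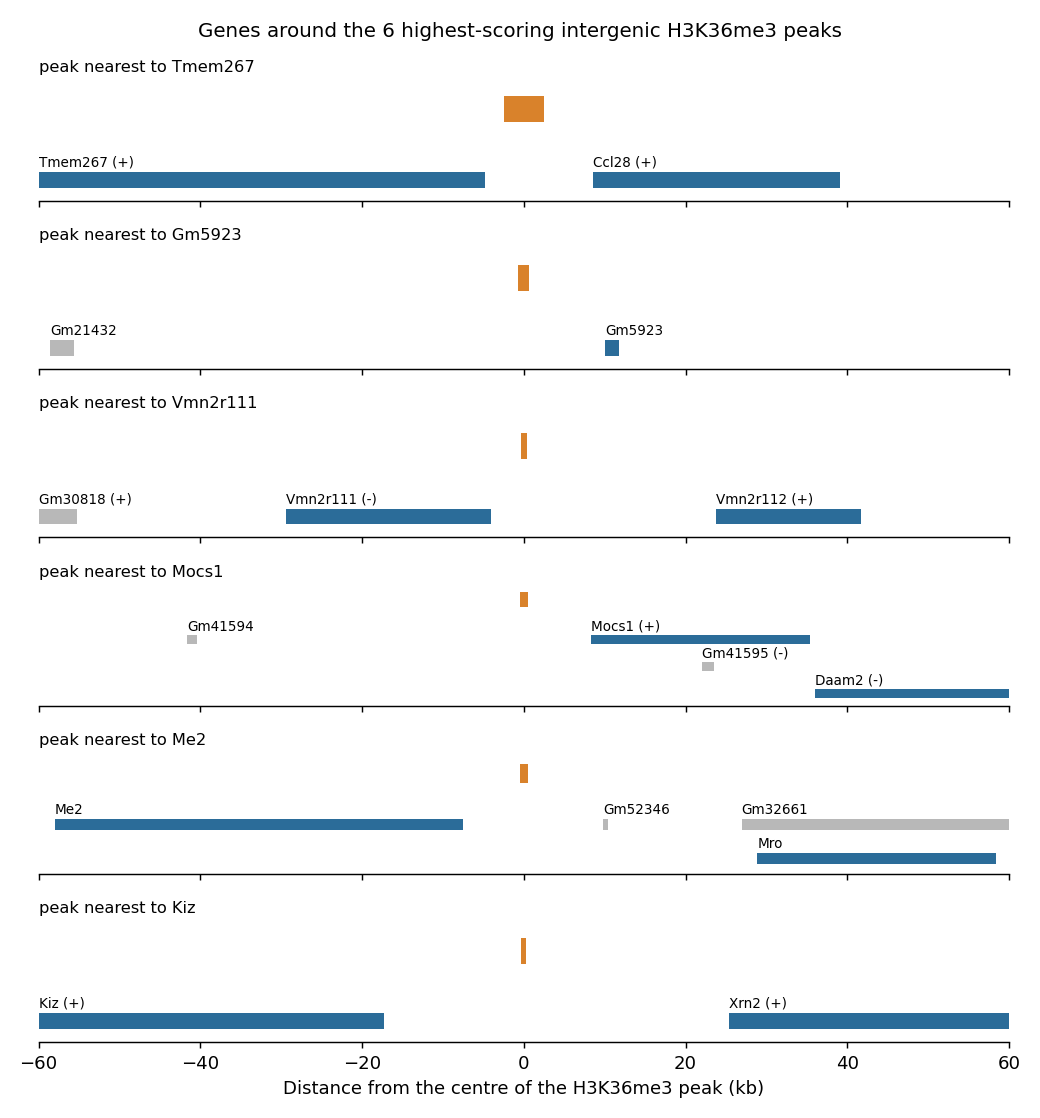
Genes (blue, protein-coding; grey, other; strand in brackets where known) around the 6 highest-scoring intergenic H3K36me3 peaks (orange), by distance in kb from the centre of the peak. The peak behind Tmem267 spans 4906 bp and lies between that gene and Ccl28, and the peaks near Gm5923, Vmn2r111, Mocs1, Me2 and Kiz are 612 to 1395 bp wide.

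In score and width the intergenic peaks were like the rest of the list. Their median score was 33.5 (quartiles 31.4 and 37.4), beside 33.5 for the gene-free peaks farther away, 33.7 for peaks in protein-coding genes and 33.9 for peaks in other genes only. Scores ran from 30.04 to 61.0, and 45 peaks (13.5%) scored over 40, as did 14.5% of the peaks in protein-coding genes. The median width was 602 bp against 608 bp in protein-coding genes and 577 bp farther away, and 5 peaks were wider than 1 kb. By distance, the median score was 34.5 within 1 kb, 33.0 from 1 to 5 kb, 33.3 from 5 to 10 kb, 33.9 from 10 to 20 kb and 33.8 beyond. All 9 peaks with a score over 50 lay within 20 kb of a gene (100%, 66.4 to 100), as did 33 of the 45 over 40 (73.3%, 58.1 to 85.4). Of all 334 peaks 231 did (69.2%), a share inside both intervals. The cutoffs of 40 and 50 were chosen after the scores were seen.

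**Figure D5:**
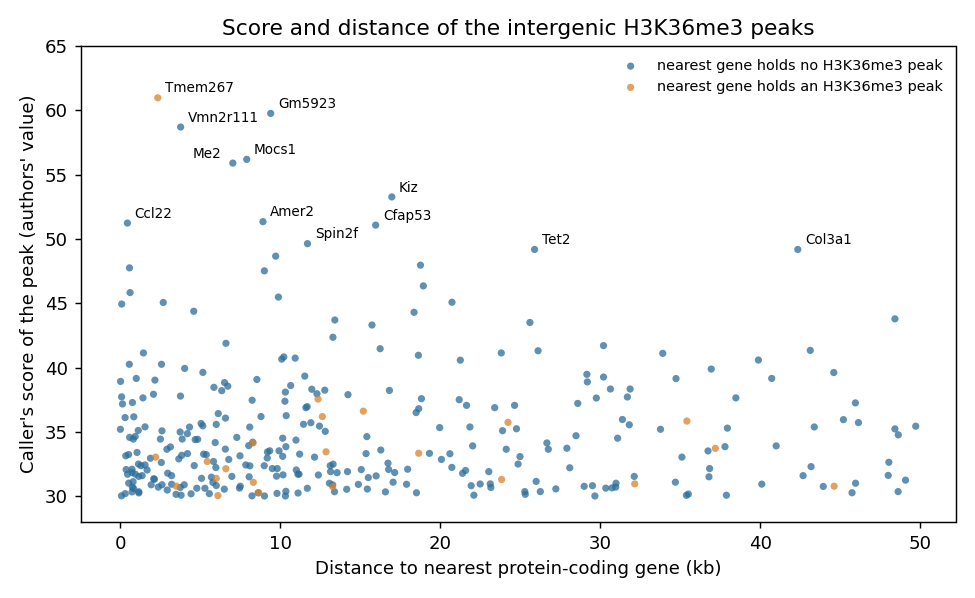
Score of each of the 334 intergenic H3K36me3 peaks (the authors' value, vertical axis) against its distance in kb to the nearest protein-coding gene, with the 12 highest-scoring peaks named by that gene and the 22 peaks whose nearest gene holds an H3K36me3 peak in orange. All 9 peaks with a score over 50 lie within 20 kb, and most peaks at every distance score between 30 and 40.

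The 334 peaks had 322 different genes as nearest protein-coding neighbours, 1.48% of the 21779 protein-coding genes. A single peak belonged to 310 of them, and 12 genes were nearest to 2 peaks each. The neighbours had a median span of 30.4 kb (95% interval 22.9 to 38.3), near the 27.3 kb of the genes nearest to placements. The nearest gene of any kind was protein-coding for 204 peaks (61.1%), a long non-coding RNA gene for 67 (20.1%) and a pseudogene for 57 (17.1%). A protein-coding gene lay within 50 kb on both sides for 152 peaks (45.5%, 40.1 to 51.0; placements 42.3%). Where both strands were known, 31 of 105 such pairs were divergent (29.5%, 21.0 to 39.2; placements 23.7%), 22 convergent (21.0%, 13.6 to 29.99; placements 17.9%) and 52 tandem (49.5%, 39.6 to 59.5; placements 58.5%). All of these placement shares lay inside the intervals.

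Some neighbour genes also carried peaks of the mark in their own bodies, at a share near that of placements. For 22 of the 334 peaks (6.59%, 4.17 to 9.80) the nearest gene also held an H3K36me3 peak. The share over placements was 6.04% and that of all protein-coding genes 4.51%, both inside the interval. None of the 29 peaks within 1 kb of a gene belonged to these 22, where the exact interval for 0 of 29 reaches 11.9% and the placement share was 4.79%. The distance from the intergenic peak to the nearest peak in the gene ran from 8.96 to 294 kb, with a median of 54.1 kb. Besides Tmem267, the genes with a peak both inside and nearby included the semaphorin gene Sema3d (a score of 36.6 outside and 33.8 inside the gene) and Resf1 (36.2 and 34.5). Akr1d1, a bile acid synthesis gene, had 2 peaks behind its end, at 3.50 kb (30.8) and 35.4 kb (35.9), and 1 inside (33.5). Near Fut8, a fucosyltransferase gene, the intergenic peak scored 33.7 and that in the gene 56.9. Elf3, an epithelial transcription factor gene picked here after its values were seen, spans 4.90 kb, held a peak of 34.4 and had another 8.66 kb behind its end (30.3).

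Most of the intergenic peaks had no other H3K36me3 peak within 50 kb. No placement share is given for this measure, so the shares below cannot be called low or high against placements. Another H3K36me3 peak lay within 5 kb of 8 peaks and within 50 kb of 44 (13.2%, 9.74 to 17.3), beside 12.7% of the peaks in protein-coding genes and 5.05% of the gene-free peaks farther away. None had another H3K36me3 peak within 1 kb. In 13 places 2 intergenic peaks stood in a run of peaks no more than 50 kb apart. A pair 1.84 kb apart lay 4.43 and 6.97 kb before the start of Eno1, the glycolytic enolase gene (scores 30.2 and 31.6). Another stood behind Ssc4d, 3.49 and 8.23 kb from its end (30.2 and 30.1). On the X chromosome 2 peaks 2.52 kb apart lay before the predicted gene Gm10487 (35.3 and 33.8), and on chromosome 5 another 2, 1.73 kb apart, near Gm3183 (34.7 and 30.4). A SETD2 peak lay within 50 kb of 4 of the 334 peaks and overlapped 1 of them, on chromosome 8 at 19966708 to 19967388, 31.4 kb from 9530057J20Rik. The overlapped peak had 17 pseudogenes within 500 kb, so it lies in a pseudogene-crowded region of the kind described below. The other peaks with a SETD2 peak within 50 kb were the Gm3183 pair and 1 before the start of Stt3b, an oligosaccharyltransferase gene. The SETD2 peak near Stt3b, 29.0 kb from the intergenic peak, scored 83.6. The whole SETD2 list held 186 peaks. No such count is given here for the other H3K36me3 peaks or for placements, so 4 of 334 cannot be called few or many. Since the SETD2 and H3K36me3 peaks share 1 input library, overlaps between them are not independent of it.

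Regions crowded with pseudogenes, with 10 or more within 500 kb, held 46 of the 334 peaks (13.8%, 10.3 to 17.9), among them those near Vmn2r111, Cyp4f18, Olfr1251, Olfr916 and Olfr483. The peak near 9530057J20Rik that overlapped a SETD2 peak was also in such a region. Gene-free positions within 50 kb of a protein-coding gene, taken every 1 kb, were in such regions in 14.6% of cases. Of the gene-free peaks farther away 5.39% (3.11 to 8.601) were, against 2.38% of the positions. In repeated families reads may fit several copies, and the part this has in these peaks was not tested.

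The neighbour genes were also sorted into 23 gene lists, of which 9 held no neighbour. None of the 100 genes in 5 lists of intestinal epithelial cells (absorptive enterocyte, stem and progenitor, goblet, Paneth, enteroendocrine and tuft) was a neighbour, where the overall share of 1.48% amounts to 1.48 genes. The exact interval for 0 of 100 genes reaches 3.62%. Of 22 immune genes 0 were, and of 18 genes of smooth muscle, fibroblasts and endothelium 2 were, Col3a1 and Pdgfrb, a platelet-derived growth factor receptor (score 30.3, 8.62 kb). The lists are short, and other genes of these kinds were neighbours. Slc26a3 and Elf3 stood in none of the 5 epithelial lists, and Il6ra, Ccl22 and Fcgr4 were not in the immune list. Both counts of 0 therefore hold for the listed genes alone. A peak list measures no expression, so these lists only sort the neighbours. Olfactory and vomeronasal receptor genes gave 22 neighbours of 1474 (1.49%), led after Vmn2r111 by Olfr1251, Olfr916 (41.5) and Olfr483 (41.2). Zinc finger genes of the Zfp series gave 8 of 397 (2.02%), with Zfp157 (39.2, 34.7 kb), Zfp318 (35.4, 21.8 kb), Zfp33b (32.3, 5.97 kb) and Zfp936 (32.2, 6.598 kb) the highest. Predicted genes gave 30 of 1742 (1.72%) and defensin genes 2 of 70, Defb3 and Defb33.

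Solute carrier genes gave 7 neighbours of 346 (2.02%). The highest-scoring peak lay 24.98 kb before the start of Slc22a2, an organic cation transporter gene (33.10). Slc26a3, the chloride and bicarbonate exchanger of the intestinal brush border, had a peak (33.06) 12.1 kb before its start and 0.164 kb from a pseudogene. Slc25a36, a mitochondrial nucleotide carrier gene that held a peak of its own, had one 2.21 kb before its start (33.06). Slc5a4b followed (32.5, 13.3 kb). Of 28 genes of H3K36 methylation 2 were neighbours. The peak near Nsd1, an H3K36 methyltransferase, scored 41.9 at 6.61 kb, and that behind Setmar, a gene of a SET domain protein, 39.95 at 4.03 kb. Fzd7, a Wnt receptor, was the neighbour among 40 Wnt pathway genes, with a peak 33.8 kb before its start (35.2). Among genes active in most cells, the ATP synthase gene Atp5b (35.4, 1.55 kb) and the complex I gene Ndufb4 (33.1, 10.2 kb) were the neighbours of 100 respiratory chain genes, and Psmd12 (31.1, 17.0 kb) that of 51 proteasome genes. Neither the 83 ribosomal protein genes, the 36 splicing factor genes nor the 39 homeobox cluster genes had any. Single neighbours came from 28 housekeeping genes (Eno1), 98 cytochrome P450 genes (Cyp4f18, 47.97, 18.8 kb before its start), 103 histone genes (H2bl1, 45.1) and 105 keratin and keratin-associated genes (Krtap8-1). In the shorter lists 1 or 2 genes set the share, and no list was tested.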

How the data were processed

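For each antibody, 1 list of peaks was deposited. Per the file names, each set 1 ChIP library against the input library, and the peak names in the lists begin with MACS. Start and end positions are in bp. The score in the deposited lists is the authors' own value per peak. Its scale is not stated, its minimum was 30, and it was used only to rank peaks within a list. Depth is unknown, because no read numbers stand in the lists. CASAVA 1.8 and hg19, a human build, are named in the submitters' processing notes. The coordinates were taken as GRCm38, since peaks on chromosomes X and Y end beyond those chromosomes in hg19 and in the older mouse build. The sources used here do not give the aligner or the caller's version.

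RefSeq (GRCm38.p6) supplied the gene spans: 49603 genes, 21779 of them protein-coding, after 340 with starts below 3 Mb (scaffold positions; not on chromosome Y) were left out. Strand came from the RefSeq promoter table (17492 protein-coding genes). Distance is the number of bases between peak edge and gene edge. Placements were counted by arithmetic, not drawn, between the outermost gene or peak of a chromosome, with equal weight per peak. This counting was tested on simulated toy chromosomes and equalled brute force in 360 of 360 cases. Python 3.11.15, pandas 2.3.3 and scipy 1.17.1 were used.

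The members, the 23 gene lists and the naming rule were chosen with earlier results of these data known. Genes were named as neighbours of the 12 highest-scoring and 12 closest peaks, the 6 widest, genes with 2 peaks (up to 10), up to 4 per list, 8 with a peak in the gene, those near SETD2 peaks, and the 2 peaks on either side of the limit. Not all are printed, and 1 gene that the rule selects is not reported here. Other genes within 1 kb, Ssc4d, Elf3 and Gm13710 with Tfpi were added after their values were seen. Alternatives were a higher score, other limits, midpoints, merged peaks, autosomes alone, no predicted genes and no pseudogene-dense regions.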

Additional observations from a re-analysis of the deposited data

How the results depend on the processing

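Of 58 alternative values over 8 settings, 51 stayed inside the main 95% interval or, for counts, within 1.5 times the main count. The others were these. With only the peaks scoring the list's median or more, 164 intergenic peaks and 163 neighbour genes were left, the share with an H3K36me3 peak in the nearest gene was 3.66% (placements 3.12%) and the share within 50 kb of another peak 4.27%. Fewer peaks enter that setting by construction. With genes named Gm or ending in Rik left out of the annotation, 48.6% of gene-free peaks lay within 50 kb (placements 38.0%). With limits of 20 and 100 kb, the median distance was 7.04 and 15.7 kb (placements 7.11 and 21.6 kb), which the limits themselves set. The share of gene-free peaks within 50 kb exceeded that of placements under each of the 4 settings for which placements were computed: the higher score (53.6% against 39.4%), no Gm and Rik genes, merged peaks (53.1% against 39.8%) and autosomes alone (53.4% against 40.01%). Placements without runs of N were not run, since no genome was used here. With 1 library per antibody, counting error is the only error that can be given.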
